A study of Homo sapiens with 8 samples.

Results

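The forkhead (FOX) transcription factors were examined in endothelial cells made from the WTC-TJP1 line, an established line of human induced pluripotent stem cells. Members were the protein-coding genes of the deposited count table whose symbol is FOX, a letter from A to S and a number. This gave 41 of the 30386 listed genes. FOXL2NB fits the rule by name only, since it is the neighbour of FOXL2 and not a forkhead factor, which leaves 40 FOX factors. Messenger RNA was sequenced from 4 samples of endothelial cells (iEC) and 4 samples that the labels name retinal endothelial cells (iREC), all at passage 1, and no genotype or drug treatment distinguishes the groups in the labels. Both groups come from this single line, and in each the samples are lettered C to F. The labels do not say whether the letters stand for separate differentiations, so p-values measure the spread between these samples, which may be partly technical.

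Forkhead factors bind DNA through a winged-helix domain. FOXC1, FOXC2 and FOXF2 act in vessel and mural cell development, and FOXF2 and FOXQ1 are known as factors of the blood-brain barrier endothelium. FOXO factors restrain growth and metabolism and leave the nucleus when the kinase AKT phosphorylates them, FOXP factors act mainly as repressors, and FOXM1 drives genes of mitosis. Levels are given as CPM, read counts scaled to the library total after TMM (trimmed mean of M-values) correction. The iEC libraries held 14877502 to 16971865 counts and the iREC libraries 13739364 to 15987839. A count of 3, used as the floor of detection, was worth 0.177 to 0.214 CPM and covers counting error only.

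FOXQ1, FOXF2 and FOXC1 lie side by side on the short arm of chromosome 6, in a stretch of 301 kb. Their promoters are shown because these neighbours differed widely in level. The 250 bases before each RefSeq start (GRCh38.p14, plus strand) are given 5′ to 3′, upstream of the transcribed exons, with the GC box GGGCGG or its reverse complement in capitals. The FOXQ1 window is chr6:1311848-1312097, the FOXF2 window is chr6:1389326-1389575 and the FOXC1 window is chr6:1609665-1609914.
FOXQ1: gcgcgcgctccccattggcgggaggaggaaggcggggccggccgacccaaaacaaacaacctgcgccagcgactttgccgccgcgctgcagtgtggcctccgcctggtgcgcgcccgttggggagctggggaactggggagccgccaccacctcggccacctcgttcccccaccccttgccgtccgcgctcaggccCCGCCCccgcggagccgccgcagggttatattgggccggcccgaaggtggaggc
FOXF2: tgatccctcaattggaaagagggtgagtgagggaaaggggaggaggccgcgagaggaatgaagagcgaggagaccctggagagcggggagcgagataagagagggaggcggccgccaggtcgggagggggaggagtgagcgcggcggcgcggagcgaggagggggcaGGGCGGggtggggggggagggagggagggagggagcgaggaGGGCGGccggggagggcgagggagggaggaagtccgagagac
FOXC1: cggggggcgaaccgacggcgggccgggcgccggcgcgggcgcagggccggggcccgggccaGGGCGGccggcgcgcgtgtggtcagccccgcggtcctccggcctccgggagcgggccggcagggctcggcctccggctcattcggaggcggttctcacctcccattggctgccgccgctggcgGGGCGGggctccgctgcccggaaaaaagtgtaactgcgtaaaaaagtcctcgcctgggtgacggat
The FOXQ1 window is 74.0% G and C and holds 29 CpG dinucleotides and 1 GC box. The FOXF2 window is 70.8% G and C, with 20 CpG and 2 GC boxes, and the FOXC1 window is 76.8% G and C, with 37 CpG and 2 GC boxes. All 3 are thus richer in CpG than the median of 11 over the 35116 promoters of the same table, and 85.9%, 67.6% and 96.0% of those promoters held fewer CpG than FOXQ1, FOXF2 and FOXC1. On both strands, GGGCGG occurs in 42.6% of all promoters and the forkhead core TAAACA in 11.0%. None of the 3 windows holds TAAACA, which says only that these letters are not in them. Other forms of a forkhead site were not searched for. The RefSeq table had entries for 31 of the 41 members.

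Of the 41 members, 19 had enough reads to be tested and 22 did not. By edgeR's quasi-likelihood test with Benjamini-Hochberg adjustment over all tested genes, 8 of the 19 passed an adjusted p of 0.05, against 25% of the 15330 tested genes. Higher in iREC were 7 members (FOXC2, FOXS1, FOXP1, FOXO1, FOXO3, FOXP4 and FOXC1), where 13.2% of all genes were higher; FOXS1 entered the test only through its iREC counts. Lower was 1 member, FOXK2, where 11.7% of all genes were lower. In these same 8 members the 4 iEC samples did not overlap the 4 iREC samples, against 29.1% of all tested genes. The median log2 fold change was 0.63 over the 19 tested members and 0.02 over all tested genes. No test was made of whether the family differs from other genes.

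**Figure D1:**
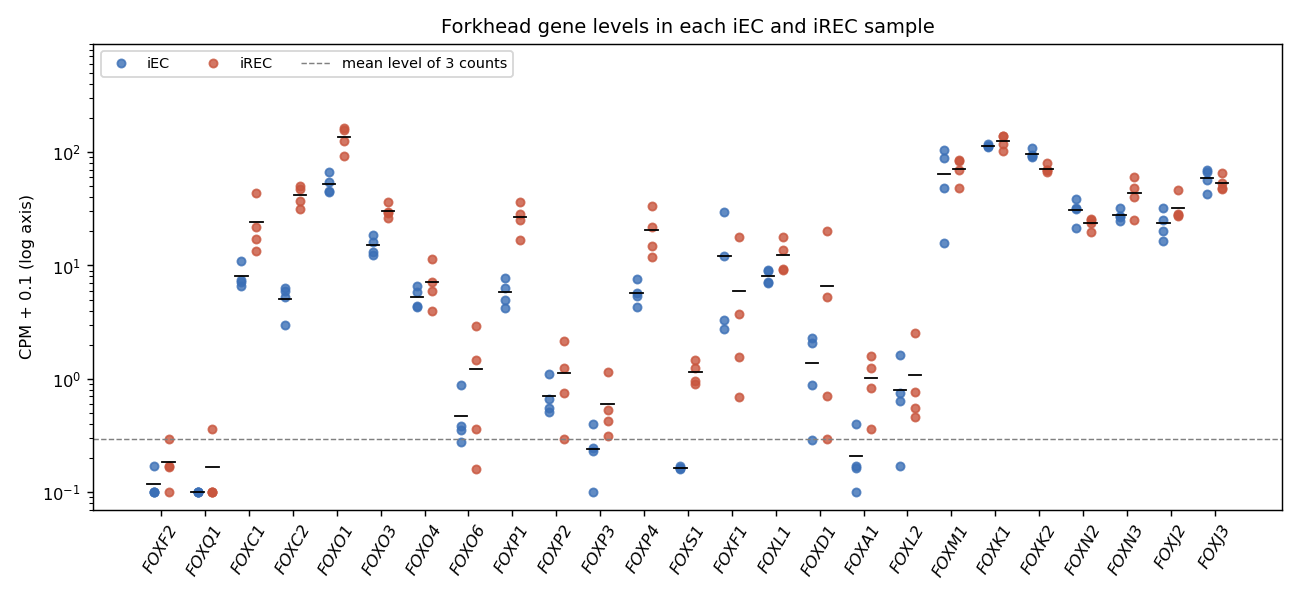
Level of 25 forkhead genes in each sample (CPM plus 0.1, log axis). Each point is 1 sample, short black bars are group means, and the dashed line is the mean level worth 3 counts. FOXF2 and FOXQ1 lie near or under that line, while FOXC2, FOXO1, FOXO3, FOXP1 and FOXP4 separate the groups.

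Endothelial markers and markers of other cells were measured in the same libraries. The 7 endothelial markers, all present in the table, summed to 5821 to 7730 CPM in iEC and 3652 to 8090 CPM in iREC, with iREC F lowest. Within that sum PECAM1, an adhesion molecule of endothelial junctions, fell from 2228 ± 285 to 753 ± 175 CPM (SD, n = 4; adjusted p 6.32e-04 by edgeR, log2 fold change -1.57), CDH5 also fell, and TEK rose. The 9 mural and mesenchymal markers summed to 214 to 348 CPM in iEC and 1220 to 4962 CPM in iREC, with iREC F highest. Of these TAGLN and POSTN rose without overlap of the groups. LUM also rose, but its groups overlapped, at 1.96 CPM in iREC C and 428 CPM in iREC F against 7.14 CPM in iEC F. The pericyte gene RGS5 fell from 115 ± 46.1 to 43.8 ± 18.9 CPM (SD, n = 4), and its groups overlapped as well. The adjusted p of RGS5 was 0.0210 by edgeR and its log2 fold change -1.40. PDGFRB, CSPG4, ACTA2 and COL3A1 did not pass (adjusted p 0.108, 0.160, 0.0559 and 0.0863 by edgeR). Their groups overlapped, with iREC F highest for each, and PDGFRA had too few reads for the test. These marker genes are named after their values were seen. The 6 epithelial markers summed to 390 to 1171 CPM in iEC and 301 to 4912 CPM in iREC, again highest in iREC F. KRT8 and KRT18 made up most of it there, at 3017 and 1534 CPM, and neither passed (adjusted p 0.234 and 0.359 by edgeR). KRT19 and EPCAM did not pass either, and EPCAM averaged 1.46 CPM in iEC and 1.53 CPM in iREC. KRT7 rose with overlapping groups, and CDH1, which was not tested, reached 81.4 CPM in iREC F. Of 7 endoderm and liver markers, 6 were in the table and summed to 1.36 to 4.85 CPM in iEC and 22.4 to 102 CPM in iREC. GATA6, at 20.3 to 22.2 CPM in the 4 iREC samples, made up most of that sum in iREC C, D and E, and GATA4, at 73.8 CPM, most of it in iREC F, while CER1, AFP and APOA1 averaged under 1 CPM in each group. The 4 pluripotency markers summed to 8.64 to 33.0 CPM in iEC and 20.7 to 481 CPM in iREC, nearly all from LIN28A, while POU5F1, NANOG and SOX2 averaged under 1 CPM in each group. Of 6 neural markers, 4 were in the table and summed to at most 4.22 CPM. The part of these other-cell transcripts in the FOX results was not tested, and in bulk RNA fewer cells of a type and less RNA per cell cannot be told apart. All 7 endothelial markers were detected in both groups, and no list of retinal markers was used.

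FOXF2, at chromosome 6, 1389576 to 1395603 on hg38, was hardly detected. Its counts were 0, 0, 0 and 1 in iEC C, D, E and F and 1, 1, 0 and 3 in iREC, so every sample was at or under the floor. FOXQ1, at chromosome 6, 1312440 to 1314748, had no count in any iEC sample and counts of 0, 0, 0 and 4 in iREC C, D, E and F. Only iREC F rose above the floor, and neither gene had enough reads for a test or a fold change. At this depth a level of up to about 0.214 CPM in a sample could not be told from 0.

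FOXC1, which acts in vascular, mural and eye development, was well above that level and higher in iREC. It lies at chromosome 6, 1609972 to 1613897. FOXC1 measured 7.00, 10.9, 7.32 and 6.43 CPM in iEC C, D, E and F and 13.3, 21.6, 16.9 and 43.6 CPM in iREC. The highest iEC sample stayed below the lowest iREC sample, and iREC F was far above the other 3. The means were 7.92 ± 2.03 and 23.9 ± 13.6 CPM (SD, n = 4), or a log2 fold change of 1.59 ± 0.37 (SE, adjusted p 0.0131 by edgeR). Without iREC F the log2 fold change was 1.12, with an adjusted p of 0.0117.

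FOXC2, the close relative of FOXC1 known for its part in lymphatic and venous valves, showed the smallest adjusted p of the family. It lies at chromosome 16, 86566829 to 86569728. FOXC2 measured 2.85, 6.18, 5.14 and 5.85 CPM in iEC C, D, E and F and 36.8, 47.0, 31.3 and 50.3 CPM in iREC. Every iREC sample was several times above every iEC sample. The means were 5.01 ± 1.50 and 41.4 ± 8.82 CPM (SD, n = 4), or a log2 fold change of 3.04 ± 0.27 (SE, adjusted p 9.87e-05 by edgeR), and 2.94 without iREC F. An antisense gene, FOXC2-AS1, overlaps FOXC2 by 933 bases but averaged only 0.219 CPM.

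The rises of FOXC1 and FOXC2 were compared within each library. On the log2 scale of reads per length, the FOXC1 to FOXC2 ratio was 0.85, 0.38, 0.07 and -0.30 in iEC C, D, E and F and -1.90, -1.56, -1.33 and -0.64 in iREC. All 4 iREC ratios were below all 4 iEC ratios, and the difference was -1.61 (n = 4 per group, exact two-sided permutation p 0.0286, the smallest this design allows). Adjusted over the 4 pairs of relatives compared, p was 0.0571, which misses 0.05. Since the unadjusted p could not be smaller, passing depended on the p-values of the other pairs. This test therefore cannot decide the question, and a difference between the rises is not established.

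The rest of the chromosome 16 cluster behaved unevenly. FOXF1, FOXC2 and FOXL1 lie within 71.6 kb there, with FOXF1 51.4 kb from FOXC2 and FOXL1 6.64 kb beyond it. FOXF1, a factor of lung and gut mesenchyme that endothelial cells also use, measured 3.18, 2.65, 12.1 and 29.8 CPM in iEC C, D, E and F and 0.587, 3.63, 1.46 and 17.8 CPM in iREC. Both F samples were the highest of their group, and the groups overlapped. Its log2 fold change was -1.02 ± 1.05 (SE, adjusted p 0.519 by edgeR). Leaving out single samples moved it from -2.66 (without iREC F) to -0.03 (without iEC F), so these libraries do not fix its size.

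FENDRR, a long noncoding RNA beside FOXF1 that was chosen here after its values were seen, was also highest in the F sample of each group. It measured 0.324, 0.0631, 1.004 and 2.78 CPM in iEC C, D, E and F and 0, 0.997, 0.183 and 15.4 CPM in iREC. Within each group the order of the samples was that of FOXF1. FOXL1, a factor of gut mesenchyme, measured 6.94, 7.00, 8.98 and 8.93 CPM in iEC C, D, E and F. It measured 8.94, 13.5, 9.26 and 17.7 CPM in iREC, where 1 value fell just inside the iEC range. The log2 fold change of FOXL1 was 0.63 ± 0.26 (SE, adjusted p 0.105 by edgeR). Of the other genes within 500 kb, 14 were listed at the chromosome 16 cluster and 2 at the chromosome 6 cluster. Of these 3 and 1 were tested, and 0 passed.

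**Figure D2:**
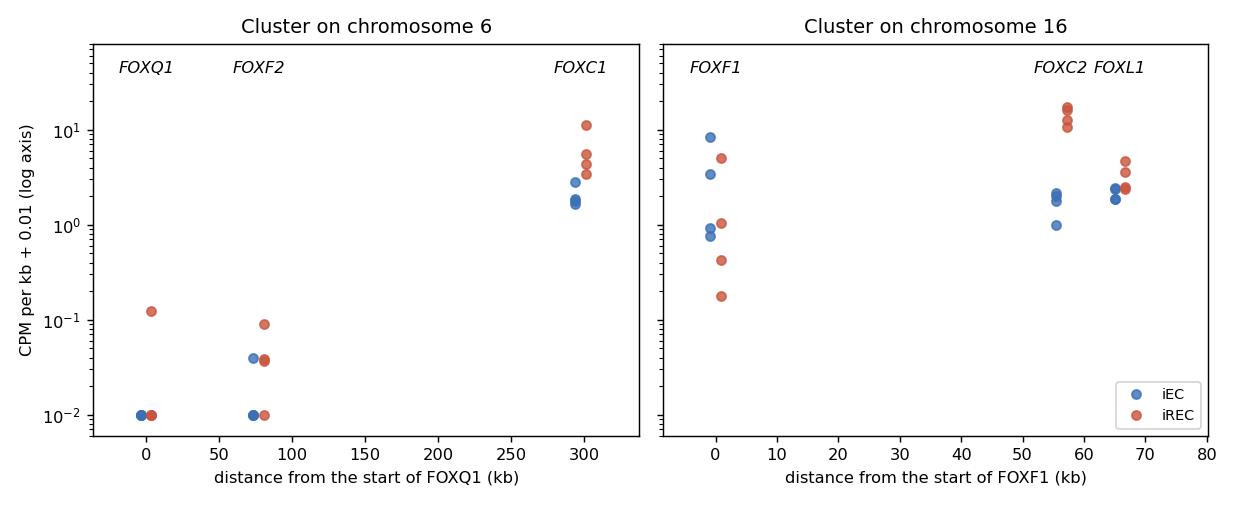
Levels per length of the clustered FOX genes (CPM per kb plus 0.01, log axis) against distance in kb from the start of the first gene, 1 point per sample, blue for iEC and red for iREC. FOXC1 and FOXC2 are higher in all iREC samples, FOXQ1 and FOXF2 are near 0, and the groups overlap for FOXF1 and FOXL1.

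FOXF2 was also set against FOXF1, its close relative. The log2 ratio of FOXF2 to FOXF1 differed by 2.54 between the groups (n = 4, exact two-sided permutation p 0.0286, adjusted p 0.0571). With FOXF2 at or under the floor in every sample, this value depends on the 0.5 added to each count and describes FOXF1 more than FOXF2.

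Among the FOXO genes, FOXO1 and FOXO3 rose in iREC and FOXO4 did not pass. FOXO1, which limits endothelial growth and metabolism, measured 54.1, 66.9, 44.8 and 44.8 CPM in iEC C, D, E and F and 157, 126, 163 and 91.6 CPM in iREC. The groups did not overlap, and here iREC F was the lowest of its group. The means were 52.7 ± 10.4 and 135 ± 32.9 CPM (SD, n = 4), or a log2 fold change of 1.35 ± 0.21 (SE, adjusted p 0.00170 by edgeR), and 1.50 without iREC F. FOXO1 lies at chromosome 13, 40469953 to 40666597, and is overlapped on its own strand by LINC00598, which averaged 1.76 CPM.

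FOXO3, a widely expressed member of stress responses, measured 13.0, 18.4, 12.3 and 15.99 CPM in iEC C, D, E and F and 28.9, 29.5, 36.0 and 26.0 CPM in iREC. Every iREC sample exceeded every iEC sample, and the log2 fold change was 1.01 ± 0.18 (SE, adjusted p 0.00303 by edgeR). FOXO4 measured 4.28, 5.74, 4.19 and 6.50 CPM in iEC C, D, E and F and 3.85, 11.3, 7.07 and 5.88 CPM in iREC. Its groups overlapped, with the lowest value in an iREC sample, and its log2 fold change was 0.44 ± 0.34 (SE, adjusted p 0.378 by edgeR). FOXO6, best known from brain, had counts of 12, 4, 3 and 4 in iEC C, D, E and F and 4, 19, 1 and 43 in iREC, too few for the test. The log2 ratio of FOXO1 to FOXO3 differed by 0.32 between groups (n = 4, exact two-sided permutation p 0.114, adjusted p 0.114), so no difference between the rises of these 2 genes was detected.

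FOXP1 and FOXP4 rose. FOXP1, a repressor that acts in endothelium, heart and blood cells, measured 4.15, 6.18, 4.84 and 7.64 CPM in iEC C, D, E and F and 16.5, 24.9, 28.3 and 36.1 CPM in iREC. The lowest iREC sample was above the highest iEC sample. The means were 5.70 ± 1.54 and 26.5 ± 8.13 CPM (SD, n = 4), or a log2 fold change of 2.21 ± 0.28 (SE, adjusted p 6.32e-04 by edgeR), and 2.02 without iREC F. FOXP1 lies at chromosome 3, 70952817 to 71583993.

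FOXP4, a lung and gut member of the same subfamily, measured 4.22, 5.61, 5.26 and 7.50 CPM in iEC C, D, E and F and 11.7, 21.7, 14.6 and 33.5 CPM in iREC. Its groups did not overlap, and iREC F was again highest. The log2 fold change was 1.85 ± 0.35 (SE, adjusted p 0.00439 by edgeR), and 1.50 without iREC F. The log2 ratio of FOXP1 to FOXP4 differed by 0.43 (n = 4, exact two-sided permutation p 0.0571, adjusted p 0.0762). FOXP2, known for neural development, had counts of 7, 9, 7 and 14 in iEC C, D, E and F and 10, 16, 34 and 3 in iREC. FOXP3, the factor of regulatory T cells, had counts of 2, 0, 5 and 2 in iEC and 5, 3, 7 and 16 in iREC. Both were below the filter and are given as counts only.

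FOXS1, a factor reported in perivascular and neural crest cells, had 1 count in each iEC sample and 21, 16, 13 and 13 counts in iREC C, D, E and F. The iREC mean was 1.04 ± 0.269 CPM (SD, n = 4), at least 5.36-fold higher than the floor of 3 counts per iEC library. FOXS1 passed the filter on low counts only through the group where it is high, so its edgeR adjusted p of 4.52e-04 is not independent of that filter. Its fitted log2 fold change of 3.85 depends on the count added to values near 0. Without it, 7 members passed, 6 of them higher in iREC. Its level in iREC stayed low, and iREC F was not among its high samples.

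FOXK2, a broadly expressed repressor of starvation genes, was the member that fell. It measured 90.1, 94.9, 108 and 93.0 CPM in iEC C, D, E and F and 79.3, 69.0, 70.1 and 66.4 CPM in iREC. The groups did not overlap, though the difference was small next to those above. The log2 fold change was -0.44 ± 0.11 (SE, adjusted p 0.0174 by edgeR). WDR45B, at 121 CPM on the opposite strand, overlaps FOXK2 by 30101 bases, and whether counting used the strand is not given in the sources used here, so reads of the 2 genes in that stretch may not be told apart. With the replicate letter as a block, or without iEC E or iREC D, FOXK2 no longer passed, at adjusted p of up to 0.0615. FOXK1, its relative, measured 111, 114, 113 and 118 CPM in iEC C, D, E and F and 138, 102, 119 and 139 CPM in iREC, with a log2 fold change of 0.12 ± 0.12 (SE, adjusted p 0.50 by edgeR).

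**Figure D3:**
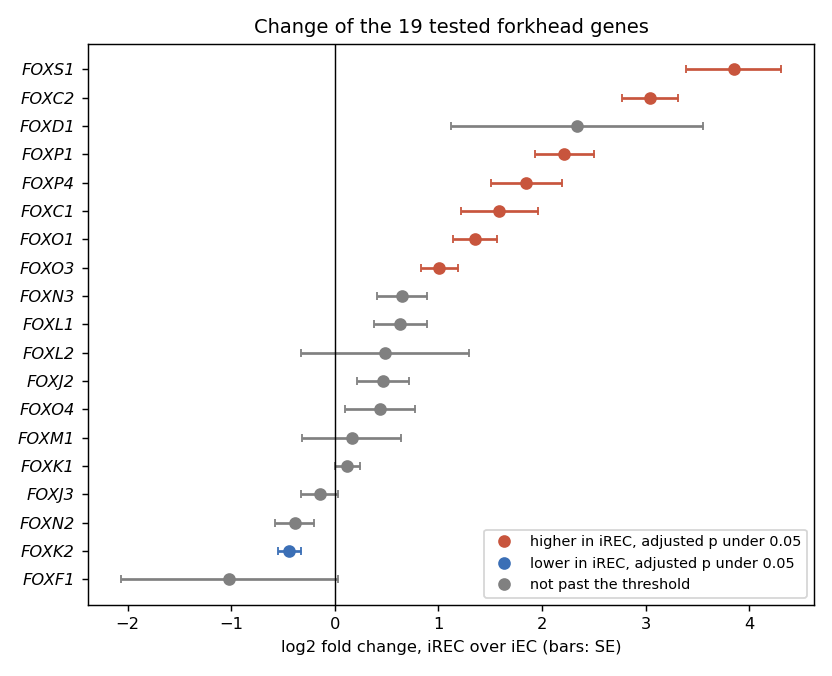
Log2 fold change of iREC over iEC for the 19 tested members, with SE as horizontal bars. Red marks the 7 members higher and blue the 1 member lower at an adjusted p under 0.05, grey the other 11. The FOXS1 value rests on 1 count in each iEC sample, and FOXD1, FOXF1 and FOXL2 have the widest errors.

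The remaining broadly expressed members did not pass. FOXN3, a repressor linked to the DNA damage checkpoint, measured 26.7, 27.4, 24.7 and 32.3 CPM in iEC C, D, E and F and 25.2, 48.6, 40.1 and 60.4 CPM in iREC, with a log2 fold change of 0.65 and an edgeR adjusted p of 0.0789. Its sample iREC C lay inside the iEC range, and without it FOXN3 passed, at 0.84 and an adjusted p of 0.0107. FOXN2 measured 38.5, 32.2, 31.5 and 21.5 CPM in iEC C, D, E and F and 25.8, 25.2, 23.8 and 19.7 CPM in iREC (log2 fold change -0.39, adjusted p 0.162 by edgeR). Its iEC F sample was the lowest of its group, and without that sample it passed, at -0.53 and an adjusted p of 0.0304.

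FOXJ2 measured 25.03, 32.2, 19.96 and 16.3 CPM in iEC C, D, E and F and 27.1, 27.7, 28.4 and 46.0 CPM in iREC (log2 fold change 0.47, adjusted p 0.207 by edgeR). FOXJ3 measured 69.6, 66.9, 57.0 and 42.8 CPM in iEC C, D, E and F and 47.3, 53.5, 64.9 and 48.0 CPM in iREC (log2 fold change -0.15, adjusted p 0.589 by edgeR). For both the groups overlapped. FOXM1, the mitotic factor, varied widely within iEC. It measured 88.1, 104, 47.8 and 15.6 CPM in iEC C, D, E and F and 85.1, 69.8, 48.2 and 82.7 CPM in iREC (log2 fold change 0.16, adjusted p 0.835 by edgeR). iEC F held the lowest level of all 8 samples, and without it the log2 fold change was -0.16. FOXM1 is overlapped on the other strand by ITFG2 and RHNO1, which averaged 21.0 and 31.9 CPM.

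FOXD1, a factor of kidney stroma, retina and pericyte precursors, was spread widely. It measured 0.778, 0.189, 1.95 and 2.21 CPM in iEC C, D, E and F and 0.196, 5.13, 0.609 and 20.1 CPM in iREC. Both iREC C and iREC E lay within the iEC range, and iREC F was far above every other sample. The log2 fold change was 2.34 ± 1.22 (SE, adjusted p 0.192 by edgeR), and 0.61 without iREC F. FOXL2, a factor of the ovary, measured 0.649, 1.51, 0.531 and 0.0714 CPM in iEC and 2.41, 0.356, 0.670 and 0.457 CPM in iREC (log2 fold change 0.48, adjusted p 0.702 by edgeR). The high value of iREC C carries this sign, since without it the log2 fold change was -0.48.

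Sample iREC F, with the most mesenchymal, epithelial and LIN28A transcripts, was thus the highest iREC sample for FOXC1, FOXC2, FOXP1, FOXP4, FOXL1, FOXF1, FOXD1, FOXN3, FOXJ2 and FOXK1. It was the lowest for FOXO1, FOXO3, FOXN2 and FOXK2. All 8 members that passed with every sample also passed without iREC F. The part of the marker transcripts in these values was not tested.

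**Figure D4:**
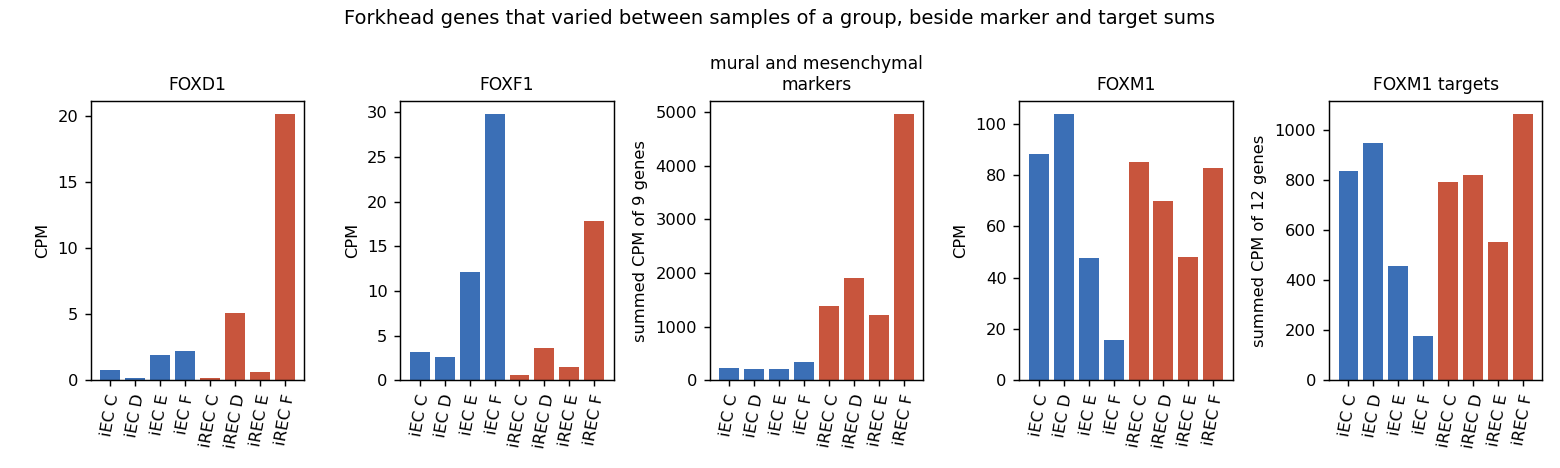
Levels of FOXD1, FOXF1 and FOXM1 (CPM) and the summed levels of 9 mural and mesenchymal markers and 12 FOXM1 targets (summed CPM) in each sample, as bars from 0, blue for iEC and red for iREC. iREC F is highest for FOXD1 and the mesenchymal sum, iEC F is highest for FOXF1, and FOXM1 and its targets are lowest in iEC F.

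Of the 22 members below the filter, 8 had at most 3 counts in every sample: FOXA2, FOXD2, FOXD4L3, FOXD4L5, FOXD4L6, FOXF2, FOXH1 and FOXR1. The other 14 had more in at least 1 sample, with 43 counts in a sample at most: FOXA1, FOXA3, FOXD4, FOXD4L1, FOXD4L4, FOXE1, FOXE3, FOXI3, FOXJ1, FOXL2NB, FOXO6, FOXP2, FOXP3 and FOXQ1. FOXA1, a pioneer factor of endoderm, had counts of 0, 1, 5 and 1 in iEC C, D, E and F and 4, 16, 12 and 23 in iREC. iREC C lay within the iEC range. FOXA1 passed only where low counts were kept or 1 sample was left out: its edgeR adjusted p with no filter was 0.0364, and the authors' deposited table lists 0.00989. The summed endoderm and liver markers were also higher in every iREC sample. They were mainly GATA6 in iREC C, D and E and GATA4 in iREC F. The groups overlapped for GATA4, which did not pass (adjusted p 0.0658 by edgeR). Members of the FOXD4 group are near-identical copies, so reads may be split among them and their counts are uncertain.

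Per length of merged exons, the order of the family differed between the groups. In iEC the highest levels were those of FOXM1, FOXK2, FOXK1, FOXJ3 and FOXO1, at 13.0 ± 8.14, 9.66 ± 0.792, 8.73 ± 0.229, 8.57 ± 1.76 and 8.45 ± 1.68 CPM per kb (SD, n = 4). By these SDs alone, neighbours in that order were not separated, though within each iEC sample FOXK2 was above FOXK1. By group means, FOXO1 led in iREC with 21.6 ± 5.28 CPM per kb, followed by FOXM1 with 14.6 ± 3.45 and FOXC2 with 14.3 ± 3.04 (SD, n = 4). In iREC F the order was another, with FOXC2 at 17.3, FOXM1 at 16.9 and FOXO1 at 14.7 CPM per kb, and FOXM1 and FOXC2 were not separated by their SDs. By means, FOXC2 stood at rank 13 in iEC and rank 3 in iREC, and FOXC1 at ranks 11 and 7. FOXO1 and FOXC2 had these same ranks when the longest GENCODE transcript replaced the merged exons, but some other ranks moved. In iEC FOXK2 then led at 18.33 CPM per kb, beside FOXM1 at 18.3, and FOXJ3 stood above FOXK1. In iREC FOXM1 then measured 20.49 against 14.26 for FOXC2, and FOXK2 moved from rank 6 to rank 4 with the choice of length. FOXP1 is sensitive to that choice, since its merged exons cover 36714 bases over 76 transcripts against 8994 bases in the longest, and its rank in iREC was 18 by the first and 14 by the second.

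Summed over the family, the level was 75.7 ± 9.52 CPM per kb in iEC and 115 ± 12.8 in iREC (SD, n = 4). FOXO1, FOXC1 and FOXC2 together held 16.1 ± 1.47% of this sum in iEC and 36.8 ± 3.09% in iREC (SD, n = 4). The FOXK, FOXN and FOXJ genes held 51.7 ± 3.13% in iEC and 33.2 ± 2.66% in iREC (SD, n = 4). FOXO1, FOXC1 and FOXC2 are members that passed as higher in these same data, so their larger share is not a separate result. A share also falls when the sum rises. Of the tested FOXK, FOXN and FOXJ genes only FOXK2 passed as lower. The share of FOXO1 alone was 11.0% in iREC F and 18.0% to 25.02% in the other iREC samples, against 11.1 ± 0.875% in iEC (SD, n = 4).

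The pathways around the FOX genes were read from lists chosen with earlier results of these data known, and each count is set beside 25% for all tested genes. Of 18 regulators of FOXO proteins, all tested, 3 were higher and 4 lower, with a median log2 fold change of -0.11. The catalytic subunit PIK3CB and the regulatory subunit PIK3R1 of PI3-kinase, which lies upstream of AKT, fell, with log2 fold changes of -1.04 ± 0.15 and -0.82 ± 0.12 (SE, adjusted p 0.00112 and 0.00101 by edgeR). The kinase AKT2 rose by 0.59 ± 0.14 on the log2 scale (SE, adjusted p 0.0166 by edgeR). YWHAZ, a 14-3-3 protein that binds phosphorylated FOXO, changed by -0.49 ± 0.12 (SE, adjusted p 0.0184 by edgeR). AKT2 lost its call without iEC C, and YWHAZ without iREC D. The remaining lower gene, YWHAB, lies outside the naming rule. AKT1 and 10 others did not pass. Messenger RNA levels do not give the phosphorylation of FOXO proteins.

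Of 20 listed FOXO targets, SOD2 was left out because its symbol has several rows, and of the 19 tested 7 were higher and 3 lower, with a median log2 fold change of 0.18. IRS2, an adaptor of the insulin receptor, measured 2.92, 9.77, 8.09 and 11.1 CPM in iEC C, D, E and F and 126, 130, 164 and 99.6 CPM in iREC, a log2 fold change of 4.02 ± 0.38 (SE, adjusted p 1.28e-04 by edgeR). SESN3, a sestrin that restrains mTORC1, measured 7.46, 13.4, 5.31 and 12.1 CPM in iEC and 91.0, 122, 167 and 65.9 CPM in iREC, a log2 fold change of 3.55 ± 0.38 (SE, adjusted p 2.49e-04 by edgeR). Like FOXO1, both were lowest in iREC F among the iREC samples. So were PECAM1, CDH5, KDR, TEK and the lower target ANGPT2, while the higher target PDK4 was lowest in iREC C. A low level in iREC F is thus not particular to the higher FOXO targets. PDK4, which restrains pyruvate oxidation, had counts of 0, 15, 1 and 5 in iEC and averaged 44.8 ± 28.8 CPM in iREC (SD, n = 4), or a log2 fold change of 7.01 ± 0.87 that rests on few iEC reads (SE, adjusted p 5.16e-04 by edgeR). PDK4 entered the test only through its iREC counts, so its adjusted p is not independent of the filter on low counts. The other higher targets were CDKN1B, INSR, BCL2L11 and RBL2, which lie outside the naming rule. INSR had counts of 7, 21, 8 and 8 in iEC C, D, E and F and 41, 60, 38 and 59 in iREC. INSR also entered the test only through its iREC counts, so its call is not independent of the filter either.

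Some FOXO targets went the other way. ANGPT2, a secreted antagonist of the TEK receptor, measured 1772, 1451, 1996 and 1873 CPM in iEC C, D, E and F and 25.7, 33.0, 26.3 and 20.6 CPM in iREC. Every iREC sample was far below every iEC sample, and the log2 fold change was -6.07 ± 0.21 (SE, adjusted p 1.49e-06 by edgeR). KLF2, a flow-responsive factor, measured 14.1, 8.13, 35.0 and 19.6 CPM in iEC and 1.37, 1.50, 1.04 and 1.83 CPM in iREC, a log2 fold change of -3.74 ± 0.46 (SE, adjusted p 4.93e-04 by edgeR). MXI1, the third lower target, lies outside the naming rule. Because of ANGPT2 the summed level of the list ran from 1981 to 2729 CPM in iEC and from 838 to 1065 CPM in iREC, opposite in sign to the median.

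None (0) of 12 FOXM1 targets passed, and 0 had an unadjusted p under 0.05, by edgeR; DESeq2 and limma-voom also called 0. Their median log2 fold change was 0.39. Their summed level was 837, 952, 458 and 177 CPM in iEC C, D, E and F and 796, 823, 555 and 1065 CPM in iREC. As for FOXM1 itself, iEC F was the lowest of all 8 samples.

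Of 15 genes listed as endothelial targets of FOXC and FOXF factors, 14 were tested, 3 were higher and 2 lower, and the median log2 fold change was -0.02. TEK, the angiopoietin receptor, measured 59.6, 83.8, 58.3 and 33.4 CPM in iEC C, D, E and F and 837, 905, 1116 and 465 CPM in iREC, a log2 fold change of 3.82 ± 0.35 (SE, adjusted p 1.10e-04 by edgeR). HEY2, a Notch effector, rose by 3.09 ± 0.43, and GJA4, an arterial connexin, by 2.83 ± 0.74 on the log2 scale (SE, adjusted p 9.76e-04 and 0.0215 by edgeR). CXCR4, a chemokine receptor, and CDH5, the cadherin of endothelial junctions, changed by -2.02 ± 0.39 and -0.76 ± 0.21 (SE, adjusted p 0.00503 and 0.0298 by edgeR). DLL4, HEY1, NOTCH1, KDR and FLT1 were among the 9 that did not pass. CDH5 lost its call with the replicate block and without iEC D, iEC E, iEC F or iREC D, and GJA4 without iEC C, iEC F or iREC D.

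Of 13 genes around FOXH1, the partner of SMAD proteins in Nodal signalling, 11 were in the table and 7 tested, of which 2 were higher and 0 lower by edgeR, with a median of 0.19. ACVR1B, a receptor of this pathway, rose by 0.85 ± 0.15 on the log2 scale, from 16.6 ± 0.932 to 29.8 ± 4.53 CPM (SD, n = 4; adjusted p 0.00302 by edgeR). GDF3, a ligand named here after its values were seen, had counts of 0, 1, 0 and 0 in iEC and 88, 62, 125 and 43 in iREC, at least 26.6-fold higher than the floor of 3 counts per library. GDF3 entered the test only through its iREC counts, so its call is not independent of the filter on low counts. FOXH1 itself had at most 2 counts in any sample.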

How the data were processed

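Messenger RNA was selected with poly-T beads and the second cDNA strand made with dUTP, per the labels' protocols. Reads were processed with fastp and HISAT2 2.0.5 on hg38, per the submitters' processing notes; the counting program and annotation are not given in the sources used here. The authors deposited raw read counts per gene, which all fits used, beside a normalized signal and FPKM, which were not used for tests. The deposited log2 fold changes and deposited p-values carry no named test in the file headers, and only the FOXA1 adjusted p is quoted. Positions and merged exon lengths of all 41 members matched GENCODE release 29.

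Counts were filtered with filterByExpr, scaled by TMM and compared with edgeR 4.0.16 (quasi-likelihood, group as the only term, Benjamini-Hochberg over 15330 genes, R 4.3.3). SEs come from the coefficient and the F statistic. Pairs of relatives were compared by exact permutation of log2((count + 0.5)/length). The script was tested on simulated data. Members and lists were chosen with earlier results of these data known. Named genes were the members that passed or reached 1 CPM, all FOXO and FOXP genes, and per list up to 3 passing genes in each direction with at least 10 CPM. Some genes of the FOXO regulator list that this rule names are not reported here. Alternatives were 3 other scalings, 2 other filters, DESeq2 1.42.0, limma-voom (limma 3.58.1), the newer quasi-likelihood fit, the replicate block and each sample left out.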

Additional observations from a re-analysis of the deposited data

Results flagged for a closer look

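FOXJ2 measured 46.0 CPM in iREC F, against 27.1 to 28.4 CPM in the other 3 iREC samples. On the log2 scale of CPM, the gap between iREC F and its nearest neighbour was 0.911 of the whole range of the group. This is above Dixon's 95% critical value for 4 samples. Of 70 groups of values examined, 1 passed that value, where chance flags about 1 in 20, or 3.5 here.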

How the results depend on the processing

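The 7 members higher in iREC passed in every alternative that tested them; FOXS1 was not tested under the stricter filter. The count of members called ran from 7 to 10. The number lower in iREC was 0 with the replicate block, and 0 to 2 when single samples were left out, without iEC E and iREC D giving 0 and without iEC F giving 2. Leaving out single samples gave 4 to 9 FOXO regulators (4 without iEC C and without iREC D) and 3 to 6 FOXC and FOXF targets (3 without iEC F and without iREC D). The Nodal list had 1 call under the stricter filter. FOXL2 ran from -0.48 (without iREC C) to 1.19 and FOXM1 from -0.16 (without iEC F) to 0.51 on the log2 scale; the cause was not tested. FOXD1 was 1.03 by limma-voom and 1.28 with the replicate block. Called genes in all numbered 3829, 4954 by DESeq2, 3334 with the replicate block and 2660 to 4214 with a sample left out (lowest without iREC D). Keeping low genes moved the median log2 fold change of all genes to 0.15 with no filter and 0.16 by DESeq2.

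The replicate letters were not treated as pairs: same-letter deviations correlated at 0.168, -0.08, 0.03 and 0.25 for C, D, E and F, and iEC D correlated best with iREC C, at 0.178. With the replicate block, the sign-flip test of 4 pairs cannot pass 0.05, and it gave an unadjusted p of 0.125 for FOXF2/FOXF1. With 0.5 replaced by an added count of 1, the FOXF2/FOXF1 difference was 2.17. Depth limits FOXF2, FOXQ1 and the other members under the filter most.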
